A study of Mus musculus with 20 samples.

Results

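The smooth muscle contractile genes described here are 10 genes of the detrusor, the smooth muscle coat of the bladder wall: Acta2, Actg2, Myh11, Tagln, Cnn1, Smtn, Des, Pcp4, Kcnmb1 and Mylk. They were chosen by name as markers of that muscle. All 10 were found among the 30142 named genes of the array, each by 1 row of the deposited table, and no filter on low values was applied to them.

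Whole-transcript microarrays were hybridised with 12 ng of total RNA from each of 20 FVB/N mouse tissue samples. All mice, controls included, carried the same genotype, which includes floxed Rb (Rbf/f) and further floxed tumor suppressor genes together with loss of p107 (p107-/-), a relative of Rb. The groups were treated metastasis (n = 1), metastasis (n = 4), treated bladder (n = 3), bladder tumor (n = 7) and control bladder (n = 5). In the tumor-bearing groups a Cre adenovirus had been put into the bladder, so that floxed genes are lost in the cells it enters. Control bladders had no adenovirus named in their labels. Treated mice had received CM272, which blocks both G9a, a histone-modifying enzyme, and the enzymes that methylate DNA, intraperitoneally (5 mg/kg daily over 30 days), together with weekly cisplatin (CDDP, 6 mg/kg). Neither the organ of each metastasis nor the age and sex of the mice is given in the labels used here. Nothing in the labels ties each numbered sample to an animal of its own. The p-values therefore reflect only how far these samples differ, part of which may be technical.

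A smooth muscle cell shortens when calcium, bound to calmodulin, activates myosin light chain kinase, which phosphorylates the light chains of smooth muscle myosin and lets it pull on actin filaments. The genes of this machinery are switched on together in differentiated smooth muscle by serum response factor, a transcription factor that binds a short DNA element called the CArG box, and by its coactivator myocardin. In the bladder these genes mark the detrusor, which lies outside the urothelium, the epithelium in which bladder carcinoma starts. A bulk sample of bladder wall therefore holds muscle, connective tissue, vessels and epithelium in amounts that depend on the piece of tissue taken. Fewer muscle cells and less muscle RNA per cell cannot be told apart in such samples.

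The promoters of Acta2 and Pcp4 are shown because boxes like the element described above can be read in them. RefSeq promoter windows on the GRCm38.p6 build, from 250 bases before to 50 bases after the annotated start of a gene, were at hand for 7 of the 10 members (Acta2, Cnn1, Smtn, Des, Pcp4, Kcnmb1 and Mylk). They were searched on both strands for the CArG box, an element 10 bases long with 6 A or T bases in its centre, and for a CArG-like box in which 1 of these 6 bases may be G or C. No member window held the strict box, which 1.63% of all 32851 windows held. A CArG-like box was found in 2 of the 7 members' windows and in 9.98% of all windows. The Acta2 window, chr19:34255324-34255623 on the minus strand, held a pair of them, CCCTATATGG starting 84 bases and CCTTGTTTGG starting 34 bases before the annotated start. The Pcp4 window, chr16:96467356-96467655 on the plus strand, held CCTTTTAGGG starting 107 bases before the start. Both windows follow 5′ to 3′ on the strand of the gene, with the CArG-like boxes in capitals.
Acta2: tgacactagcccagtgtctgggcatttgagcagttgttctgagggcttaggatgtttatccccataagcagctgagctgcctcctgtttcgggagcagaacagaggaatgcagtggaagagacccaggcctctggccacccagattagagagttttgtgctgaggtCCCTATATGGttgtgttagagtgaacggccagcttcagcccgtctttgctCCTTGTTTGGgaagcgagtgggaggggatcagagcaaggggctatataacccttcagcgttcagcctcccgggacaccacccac
Pcp4: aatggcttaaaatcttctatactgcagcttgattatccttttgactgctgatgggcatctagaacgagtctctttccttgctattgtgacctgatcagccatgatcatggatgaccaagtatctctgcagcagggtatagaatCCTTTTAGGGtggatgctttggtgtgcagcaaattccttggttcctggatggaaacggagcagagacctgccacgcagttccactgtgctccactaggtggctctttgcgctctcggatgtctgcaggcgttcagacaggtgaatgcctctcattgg
These matches describe letters in the windows and no binding was measured.

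Values are on the log2 scale, so that a difference of 1 is 2-fold, and each gene is compared only with itself, because different probes cannot be set against each other on an array. Array medians over the named genes ran from 5.23 to 5.47. A set of 8 arrays drawn from 3 groups stood apart. On these arrays (metastasis 3 and 4, bladder tumor 3, 4 and 5, and control bladder 4, 5 and 6) each gene's deviation from its mean over the 20 arrays was compared with that on every other array, and the highest correlation across genes was 0.14. On the other 12 arrays the highest such correlation ran from 0.33 to 0.61. These 8 are called near-mean arrays below. They lie close to the mean of all arrays for the average of the members and for that of other gene lists read below. Urothelium markers deviated by -0.18 to -0.05 on them, beside -1.63 to 2.78 on the other 12. Leukocyte markers deviated by -0.40 to 0.22 on them, beside -1.21 to 1.65. Small differences between groups within this set are therefore no sign that the tissues were alike. Both bladder controls outside this set, control bladder 1 and 2, read 10.76 and 10.88 for Xist, the RNA that silences an X chromosome in females. Xist read 5.82 to 6.09 on the 8 near-mean arrays and 4.47 to 6.44 on the remaining arrays. The near-mean arrays lie close to the mean of all arrays for Xist too, so their values do not tell sex. Any difference that rests on these 2 controls and sex cannot be told apart.

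All 10 members ran together across the arrays, and the same 4 arrays gave the 4 highest values for each of the 10: bladder tumor 7, treated bladder 2, and control bladder 1 and 2. Bladder tumor 7 was the highest array for 8 members, and control bladder 2 for Pcp4 and Kcnmb1. Averaged over the members, the deviation from each gene's own mean was 2.58 on bladder tumor 7, 1.52 on treated bladder 2, and 1.79 and 1.79 on control bladder 1 and 2. It was lowest on metastasis 1 (-1.26), bladder tumor 6 (-1.25), the treated metastasis (-1.19) and metastasis 2 (-1.08). Bladder tumor 2 (-0.91) and 1 (-0.87) came next, and treated bladder 3 (-0.25) and 1 (-0.05) lay close to the mean. The 8 near-mean arrays spanned only -0.21 to 0.06 in this average. Single members varied more there, with spans of 0.99 for Kcnmb1 and 1.10 for Pcp4, beside 1.79 and 3.95 over all 20 arrays. Within bladder tissue, tumors held both the highest and the lowest array. The members' standard deviation over the 20 arrays had a median of 1.13, beside 0.263 for all genes, and it was in the top 1% of all genes for 6 of the 10. Of each member's variation on the 19 arrays of the replicated groups, 14.2% to 24.7% lay between the groups and the rest within them. Some share between groups arises even where groups do not differ, and the share for all genes was not computed.

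**Figure D1:**
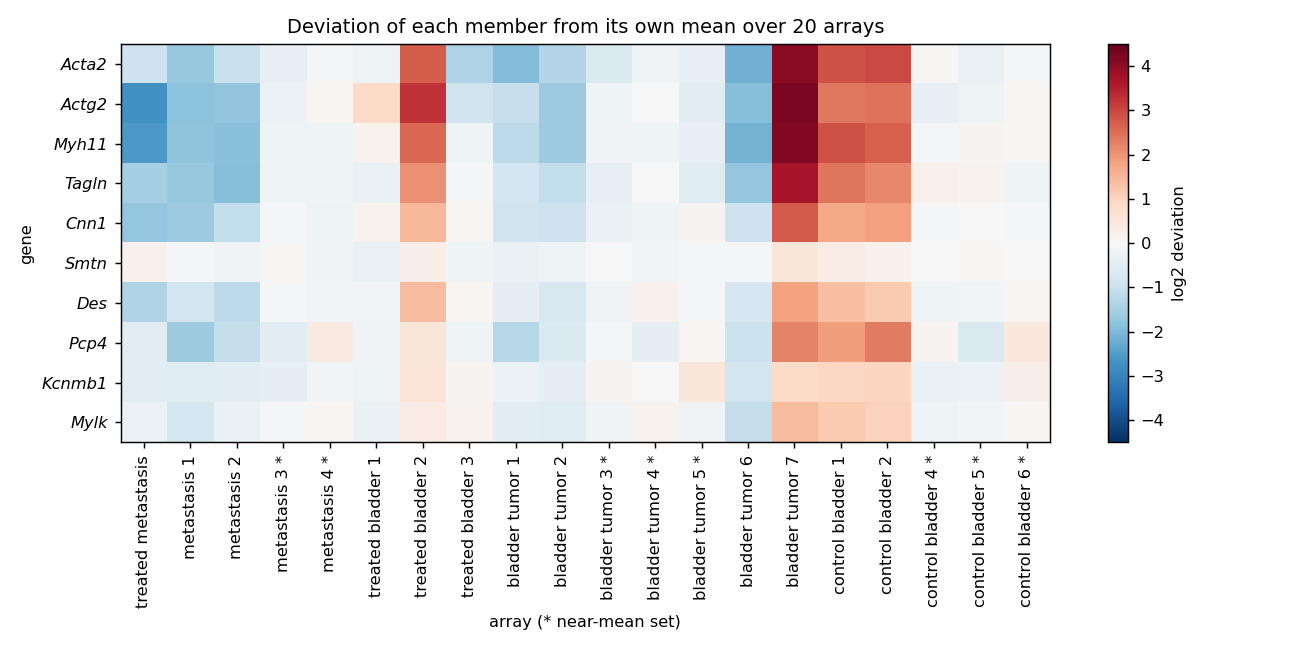
Log2 deviation of each of the 10 genes (rows) from its own mean over 20 arrays, for every array (columns, with near-mean arrays starred); red is above and blue below the gene's mean. Bladder tumor 7, treated bladder 2 and control bladder 1 and 2 are red for all 10 genes, while the near-mean arrays are pale.

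The filament proteins were followed first. Acta2 codes for smooth muscle alpha-actin, the main actin of vascular smooth muscle, which detrusor, pericytes and myofibroblasts also make. It read 7.17 in the treated metastasis and 6.38, 7.11, 7.73 and 8.06 in metastases. It read 7.86, 10.81 and 6.71 in treated bladders, 5.94 to 12.16 with a median of 7.45 in bladder tumors, and 10.97, 11.06, 8.14, 7.80 and 8.01 in control bladders. Control bladder 1 and 2, treated bladder 2 and bladder tumor 7 stood above 10 and all other arrays below 9, so the groups overlapped. The span of Acta2 over the 20 arrays was 6.22, or 74.3-fold.

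Actg2, the smooth muscle gamma-actin of visceral muscle such as gut and bladder, had a wider span of 6.95 (123-fold). It read 4.56 in the treated metastasis and 5.45, 5.50, 7.02 and 7.37 in metastases. It read 8.14, 10.53 and 6.39 in treated bladders, 5.38 to 11.51 with a median of 6.80 in tumors, and 9.66, 9.73, 6.92, 7.04 and 7.37 in control bladders. The lowest value was that of the treated metastasis, and the metastases outside the near-mean set stood with bladder tumor 6 and 2 at the bottom. The actin pair parted most on the treated metastasis, where Acta2 was 0.93 below its own mean and Actg2 2.72 below its own. On treated bladder 1 the order was the other way, with Acta2 0.24 below its mean and Actg2 0.86 above. This contrast of 2 genes was picked after the values were seen and was not tested.

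Myh11, the heavy chain of smooth muscle myosin and the most specific of these markers for the muscle lineage, spanned 6.76 (108-fold). It read 4.57 in the treated metastasis and 5.34, 5.29, 6.96 and 6.95 in metastases. It read 7.31, 9.74 and 6.94 in treated bladders, 5.03 to 11.32 with a median of 6.79 in tumors, and 10.04, 9.86, 7.10, 7.28 and 7.21 in control bladders. Every metastasis read below every control bladder for this gene, while tumors reached both below and above all controls. Des, the intermediate filament desmin of all muscle types, followed with a span of 3.17. It read 4.98 in the treated metastasis, 5.17 to 6.24 in metastases, 6.23 to 7.72 in treated bladders, 5.60 to 8.15 in tumors and 6.13 to 7.70 in control bladders.

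**Figure D2:**
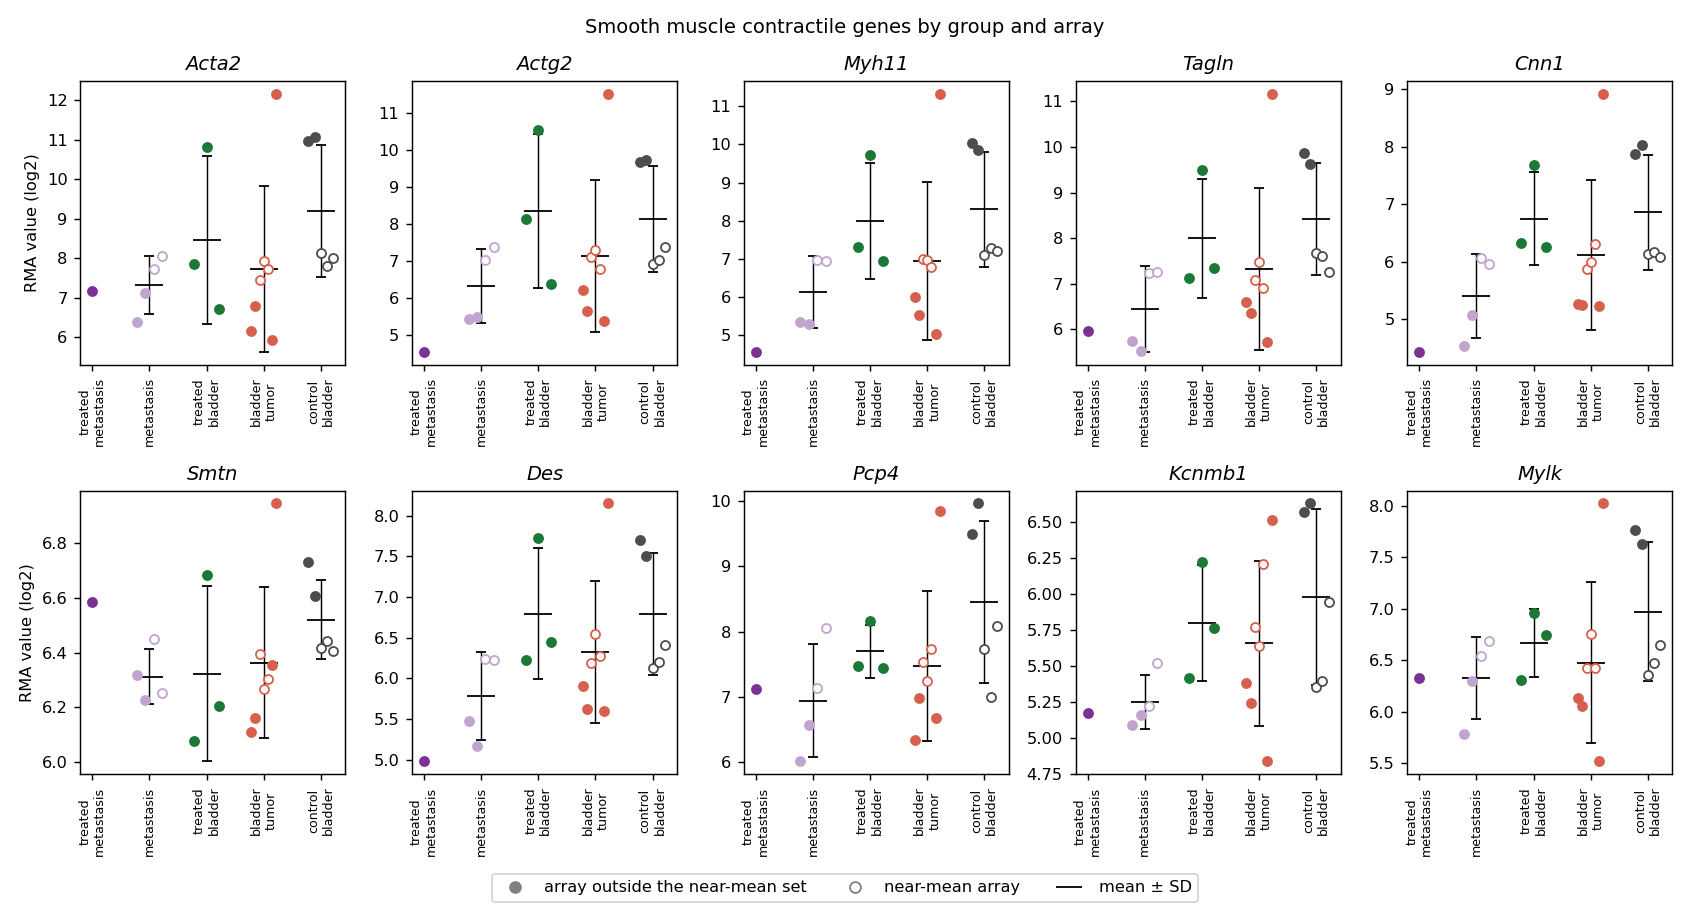
RMA values (log2) of the 10 genes, 1 panel per gene, with 1 point per array, filled for arrays outside the near-mean set and open for near-mean arrays; bars are group mean ± SD, and vertical scales differ between panels. For Acta2 the open points of all groups lie between 7.45 and 8.14, while the filled points run from 5.94 to 12.16.

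The actin-binding proteins shared the same 4 highest arrays, while their lowest arrays differed. Tagln (transgelin, also called SM22) read 5.95 in the treated metastasis and 5.74, 5.53, 7.24 and 7.26 in metastases. It read 7.12, 9.50 and 7.35 in treated bladders, 5.71 to 11.17 with a median of 6.90 in tumors, and 9.86, 9.62, 7.68, 7.61 and 7.26 in control bladders. Cnn1, calponin, which damps the myosin motor in smooth muscle, read 4.43 in the treated metastasis and 4.53, 5.07, 6.07 and 5.95 in metastases. All metastases read below all control bladders for both genes, although the highest metastasis and the lowest control, both near-mean arrays, were nearly equal. Cnn1 read 6.32, 7.67 and 6.25 in treated bladders, 5.24 to 8.92 with a median of 5.87 in tumors, and 7.88, 8.02, 6.13, 6.17 and 6.07 in control bladders. Smtn, smoothelin, a marker of contractile rather than synthetic smooth muscle, barely varied: its span was 0.87 (1.83-fold), from 6.08 on treated bladder 1 to 6.95 on bladder tumor 7. Its standard deviation of 0.223 lay below the median of all genes, although bladder tumor 7, control bladder 1 and 2 and treated bladder 2 were still its 4 highest arrays.

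The genes of calcium signalling had the same 4 highest arrays. Pcp4, a small protein that tunes calmodulin and is known from Purkinje neurons as well as from smooth muscle, read 7.13 in the treated metastasis and 6.01, 6.56, 7.14 and 8.05 in metastases. It read 7.48, 8.17 and 7.44 in treated bladders, 6.33 to 9.85 with a median of 7.24 in tumors, and 9.50, 9.96, 7.74, 6.99 and 8.09 in control bladders. Control bladder 2 read above bladder tumor 7 here, and treated bladder 2 read below control bladder 1 and 2 and bladder tumor 7. Kcnmb1, the beta1 subunit that makes the large-conductance potassium channel of smooth muscle more sensitive to calcium, ranged from 4.84 on bladder tumor 6 to 6.63 on control bladder 2. Mylk, myosin light chain kinase, ranged from 5.52 on bladder tumor 6 to 8.02 on bladder tumor 7, and its non-muscle forms are made by many other cells. Control bladder 1 and 2 read 7.76 and 7.63 for Mylk, and the other 3 controls 6.35 to 6.65.

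Bladder tumor against control bladder asked whether muscle genes differ once a tumor has grown. All 10 members had lower means in tumor, beside 47% of all genes, but the 10 genes share their arrays and move together, so this is not a count of 10 separate observations. Acta2 averaged 7.73 ± 2.09 in tumor and 9.19 ± 1.66 in control (SD, n = 7 and 5), a difference of -1.46 with a 95% interval from -3.48 to 0.56. Myh11 averaged 6.95 ± 2.07 in tumor and 8.30 ± 1.51 in control, a difference of -1.35, and Tagln 7.33 ± 1.78 in tumor and 8.41 ± 1.23 in control, a difference of -1.08. The other differences ran from -1.01 for Actg2 through -0.98 for Pcp4 and -0.74 for Cnn1 to -0.16 for Smtn, and the median over the 10 was -0.86, beside 0.01 over all genes. No member passed limma's test (0 of 10, beside 0 of 30142 genes or 0%), with an adjusted p of 0.999 for each. At an unadjusted p under 0.05 there were also 0 of 10 members, beside 1.96% of all genes lower and 2.32% higher. Array weights in limma give less weight to arrays that lie far from their fitted group means over all genes. No separate measure of quality was read. With such weights, all 19 kept, the median was -1.29 and 6 of 10 were lower at an unadjusted p under 0.05 (4.81% of all genes), with 0 of 10 after adjustment.

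Single arrays set the size of the tumor difference. Without bladder tumor 7 the median over the members was -1.29, and 9 of the 10 were lower at an unadjusted p under 0.05 (3.63% of all genes), the lowest adjusted p being 0.635. Within the near-mean arrays alone, 3 tumors and 3 controls, the members differed by -0.36 to 0.31 with a median of -0.09. Without the near-mean arrays, 4 tumors and 2 controls, the median was -2.03 and again 0 of 10 members passed (0.00332% of all genes). In this fit of 11 arrays, which leaves out the single treated metastasis as well, leaving out bladder tumor 7 as well brought 3 members below an adjusted p of 0.05 (0.196% of all genes): Pcp4 at -3.07 (adjusted p = 0.0152), Cnn1 at -2.70 (0.0411) and Mylk at -1.80 (0.0454). Leaving out any other of the 11 brought none. This last fit sets 3 tumors against the 2 controls with high Xist, and each of the 11 arrays was left out in turn. Over all 19 arrays, leaving out a control moved the median the other way and by less. From -0.86 it went to -0.55 without control bladder 1 and to -0.52 without control bladder 2.

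**Figure D3:**
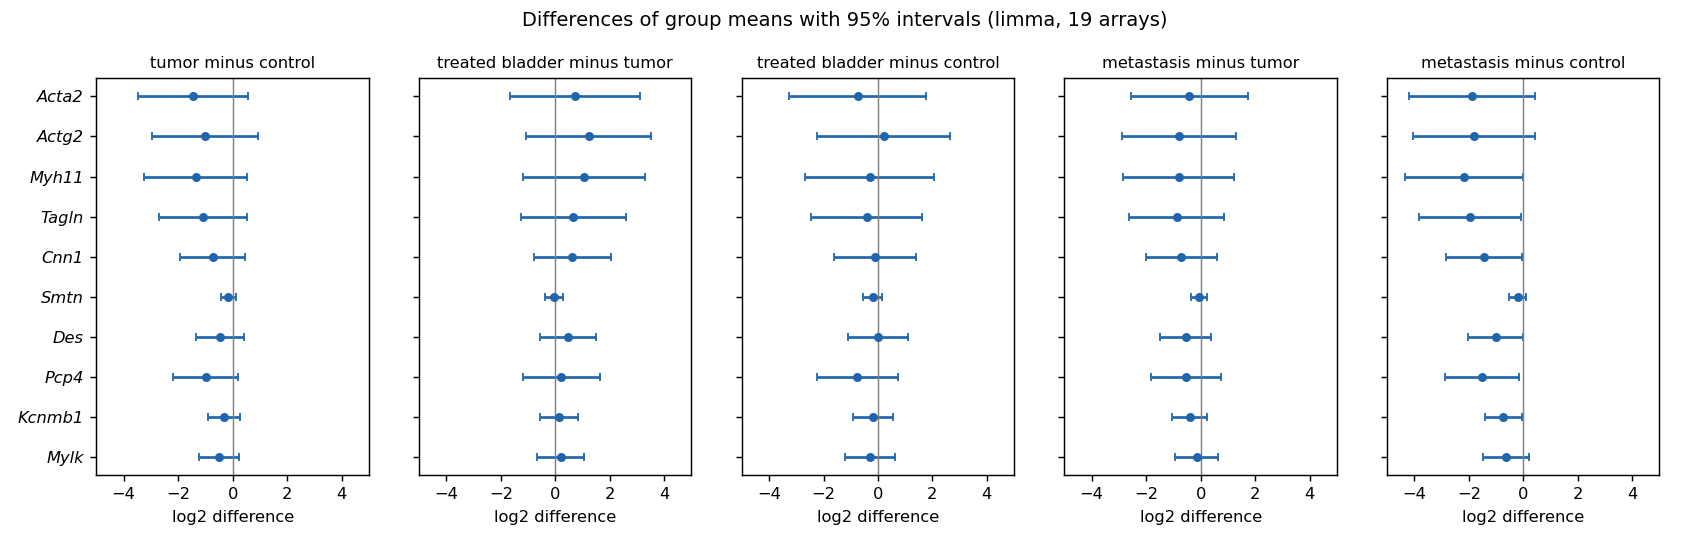
Log2 difference of group means for each of the 10 genes in 5 comparisons, with 95% intervals from limma over 19 arrays. Intervals cross 0 for all members in the first 4 comparisons and lie just below 0 for 5 members in metastasis minus control.

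Treated bladder against bladder tumor asked how the muscle genes read after CM272 and cisplatin. The means of 9 of 10 members were higher in treated bladder, beside 49.4% of all genes, with a median difference of 0.55. Actg2 averaged 8.36 ± 2.08 in treated bladder and 7.14 ± 2.06 in tumor (SD, n = 3 and 7), a difference of 1.22 with a 95% interval from -1.09 to 3.53. Myh11 averaged 7.99 ± 1.52 in treated bladder and 6.95 ± 2.07 in tumor, a difference of 1.05, and Smtn, the exception, differed by -0.04. None of the 10 passed limma's test or an unadjusted p of 0.05 (0% and, for higher values, 0.425% of all genes), with an adjusted p of 0.99997 for each. The size of the difference depended on single arrays. Without treated bladder 2 the median over the members was -0.0039, and 5 of 10 were higher. Without bladder tumor 7 the median was 0.93, and 3 members were higher at an unadjusted p under 0.05 (0.826% of all genes). Without the near-mean arrays and bladder tumor 7, the median was 1.29 and 9 of 10 were higher at an unadjusted p under 0.05 (1.28% of all genes), with 0 of 10 after adjustment. Against the mean of control bladder 1 and 2, the median over the members was -1.59, -0.23 and -1.99 on treated bladder 1, 2 and 3, and -2.92, -2.73, -2.88 and 0.76 on bladder tumor 1, 2, 6 and 7.

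Treated bladder was also set against control bladder. The members' differences ran from -0.76 for Pcp4 and -0.74 for Acta2 to 0.21 for Actg2, with a median of -0.25, and 8 of 10 were below 0, beside 47.2% of all genes. Pcp4 averaged 7.70 ± 0.41 in treated bladder and 8.46 ± 1.24 in control (SD, n = 3 and 5), and Des 6.80 ± 0.81 in treated bladder and 6.79 ± 0.75 in control. None passed limma's test (0% of all genes), with an adjusted p of 0.99999 for each, and none passed an unadjusted p of 0.05 (0.182% of all genes lower). With array weights the median was -0.98 and 3 of 10 were lower at that level (3.22% of all genes), and without the near-mean arrays it was -1.27 and 1 of 10 (0.863%). All 10 members had lower means in both fits, and 0 of 10 passed after adjustment. The interval of Acta2 ran from -3.25 to 1.78. The median depended on single arrays: it was -0.72 without treated bladder 2, 0.02 without treated bladder 3 and -0.04 without control bladder 1. All 3 treated bladders lie outside the near-mean set and 3 of 5 controls inside it, so only control bladder 1 and 2 come from the same set. Their values against the mean of these 2 are given above.

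Metastasis against bladder tumor compared the spread disease with the primary site. All 10 members had lower means in metastasis, beside 56.2% of all genes, with a median of -0.54. Tagln averaged 6.44 ± 0.94 in metastasis and 7.33 ± 1.78 in tumor (SD, n = 4 and 7), a difference of -0.88, and Cnn1 5.41 ± 0.73 in metastasis and 6.12 ± 1.30 in tumor, a difference of -0.71. No member passed limma's test (0 of 10, 0% of all genes), the adjusted p running from 0.856 to 0.965, and none passed an unadjusted p of 0.05 (3.49% of all genes lower). Without bladder tumor 7 the median was -0.11, and the differences of Acta2 (0.32), Smtn (0.05) and Mylk (0.11) were above 0. Within the near-mean arrays the members differed by -0.50 to 0.20, with a median of 0.06. Without the near-mean arrays the median was -1.09, all 10 means were lower in metastasis, and 0 of 10 passed.

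Of the 5 comparisons, metastasis against control bladder had the largest median difference. All 10 members had lower means, beside 52.9% of all genes, with a median difference of -1.48, beside -0.01 over all genes. Myh11 averaged 6.14 ± 0.95 in metastasis and 8.30 ± 1.51 in control (SD, n = 4 and 5), a difference of -2.16 with a 95% interval from -4.33 to 0.01. Tagln averaged 6.44 ± 0.94 in metastasis and 8.41 ± 1.23 in control, a difference of -1.97. Pcp4 (-1.51), Cnn1 (-1.45), Des (-1.01) and Kcnmb1 (-0.73) were, with Tagln, the 5 members at an unadjusted p under 0.05, beside 3.99% of all genes that were lower at that level. None passed after adjustment (0 of 10, 0% of all genes), the adjusted p in limma's test running from 0.686 to 0.787. With array weights the median was -1.98 and 9 of 10 were lower at an unadjusted p under 0.05 (6.49% of all genes), with 0 of 10 after adjustment. Metastases and controls did not overlap for 3 of 10 members (Myh11, Tagln and Cnn1), beside 1.95% of all genes with all metastases below all controls. Without control bladder 1 or 2, or without metastasis 1 or 2, 0 of 10 members had an unadjusted p under 0.05, and the median ran from -1.36 to -1.15. Detrusor is a tissue of the bladder, so the site of a metastasis and its muscle content cannot be told apart.

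Here too differences within the near-mean arrays were small. These arrays lie close to the mean of all arrays, so this cannot show whether metastasis and control bladder were alike. Within them, 2 metastases and 3 controls, the members differed by -0.27 to 0.13, with a median of -0.08. Without them the median was -3.29, from 2 metastases and the 2 controls with high Xist, and 9 of 10 members had an unadjusted p under 0.05 (3.26% of all genes lower) and none an adjusted one (0.0166% of all genes). In that set without bladder tumor 7, which enters only through the estimate of the spread, Pcp4 at -3.44 (adjusted p = 0.00862) and Cnn1 at -3.15 (0.0352) passed, beside 0.166% of all genes that were lower. With array weights in the fit of 11 arrays, Pcp4 passed limma's test (adjusted p = 0.0360) and the other 9 members did not, beside 0.315% of all genes lower.

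The treated metastasis is a single sample, so its values have no replicate check and no test. It lay below the range of the 4 untreated metastases for 4 of 10 members (19.1% of all genes did so): Actg2 by its 4.56 against a lowest metastasis of 5.45, Myh11 by 4.57 against 5.29, Cnn1 by 4.43 against 4.53 and Des by 4.98 against 5.17. It lay above their range for Smtn, with 6.59 against a highest metastasis of 6.45 (14.4% of all genes lay above). For Acta2, Tagln, Pcp4, Kcnmb1 and Mylk it lay inside the range. Actg2, Myh11, Cnn1 and Des had their lowest values of all 20 arrays here. As a rough floor, 1768 smell, pheromone and taste receptor genes averaged 4.63 on this array and 4.67 on metastasis 1. Actg2, Myh11 and Cnn1 lay below that level on the treated metastasis, as did Cnn1 on metastasis 1. The low ends of the spans of Actg2 and Myh11 given above, and the gap for Cnn1, therefore lie near that floor.

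Other genes of the smooth muscle program were read from 3 lists. In tumor against control, 47% of all genes had lower means and 0% passed, which are the shares to set beside these counts. The listed genes share their arrays with the members, so the counts are not separate observations. Of 17 measured genes of the contractile apparatus and cytoskeleton, 0 passed in tumor against control, with 16 lower means and a median difference of -0.34. The 2 with the smallest p were Hspb6, a small heat shock protein of muscle (-0.18), and Pdlim3, a protein of actin anchors (-0.90). Of 15 genes of calcium handling, channels, receptors and cyclic nucleotide signalling, 0 passed and all 15 had lower means, with a median of -0.19. Ppp1r12b, a myosin phosphatase subunit (-0.19), and Pde5a, a phosphodiesterase that degrades cyclic GMP (-1.09), had the smallest p. Of 10 regulators of transcription, 0 passed and 8 had lower means, with a median of -0.09. Tcf21, a factor of mesenchymal cells (-0.73), and Myocd, myocardin (-0.34), had the smallest p, and every adjusted p in these lists was 0.999 in limma's test.

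In metastasis against control, 0 of the 17, 0 of the 15 and 0 of the 10 passed (0% of all genes). Lower means were counted for 17, 13 and 7, beside 52.9% of all genes, with medians of -0.64, -0.26 and -0.08. In treated bladder against tumor, again 0 passed (0% of all genes), with 14 of 17, 12 of 15 and 3 of 10 higher means, beside 49.4% of all genes. Myocardin itself read 6.04 on bladder tumor 7, 6.24 and 6.09 on control bladder 1 and 2, and 4.47 to 5.54 on the other 17 arrays. Serum response factor (Srf) spanned only 4.80 to 5.70.

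The genes whose pattern over the 20 arrays was most like the mean of the 10 members were Synpo2, Pgm5, P2rx1, Ppp1r14a, Myl9, Synm, Niban1, Dmd, Mrvi1 and Foxp2. Likeness was Pearson's r over the 20 arrays, which include the near-mean set, and it ran from 0.99 for Synpo2 to 0.95 for Foxp2, as a description with no test. Synpo2 (synaptopodin 2, an actin-bundling protein of muscle) spanned 4.60 to 10.40, and Myl9, a light chain of smooth muscle myosin, 4.41 to 10.25. P2rx1, the receptor through which ATP from bladder nerves contracts the detrusor, spanned 4.67 to 8.82. Among the members, r with the mean of the other 9 was 0.89 or more for 9 of them and 0.74 for Smtn.

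Markers of other cell types were read on the same arrays. Urothelium markers (11 of 12 measured) were high on the 4 arrays where the muscle genes were highest. Their mean deviation was 2.78 on bladder tumor 7, 0.99 on treated bladder 2, and 0.99 and 1.34 on control bladder 1 and 2. Upk3a, a uroplakin of the umbrella cells, read 12.21 on bladder tumor 7, 8.51 on treated bladder 2, and 9.30 and 10.02 on control bladder 1 and 2. It read 3.24 on the treated metastasis, 4.55 and 4.79 on metastasis 1 and 2, and 4.55 and 4.97 on bladder tumor 6 and 2. Bladder tumor 1 and treated bladder 3 read differently, with urothelium deviations of 0.02 and 0.81 beside muscle deviations of -0.87 and -0.25. Upk3a read 7.20 on bladder tumor 1, 8.77 on treated bladder 3, above treated bladder 2, and 7.93 on treated bladder 1. The mean level of the urothelium list ranged from 5.36 to 6.91 in metastasis, 6.89 to 7.98 in treated bladder, 5.58 to 9.77 in tumor and 6.83 to 8.33 in control, and was 5.52 in the treated metastasis.

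Leukocyte markers (8 of 8 measured) and fibroblast markers (9 of 10) were highest on bladder tumor 6, at deviations of 1.65 and 1.68, where the muscle genes were near their lowest. Leukocyte deviations were also high on metastasis 1 (1.32) and low on control bladder 1 and 2 (-1.21 and -1.20). On bladder tumor 7 the leukocyte list deviated by 0.43, although Ptprc, the pan-leukocyte CD45, read 5.86 there, its lowest value, against 8.08 on bladder tumor 6. Leukocyte list levels ranged from 6.40 to 7.92 in metastasis, 5.85 to 6.50 in treated bladder, 5.56 to 8.25 in tumor and 5.40 to 6.83 in control. Fibroblast list levels ranged from 7.27 to 7.66 in metastasis, 6.70 to 7.72 in treated bladder, 6.11 to 9.13 in tumor and 7.22 to 7.85 in control. In the treated metastasis the levels were 7.32 for leukocytes and 8.30 for fibroblasts. Hepatocyte markers (7 of 8) were highest on metastasis 2, with a deviation of 1.96 and an albumin (Alb) value of 9.53. They deviated by 0.93 on the treated metastasis, where Alb read 6.86, and by 0.60 on metastasis 1, where Alb read 5.06. The part of these cell types in the muscle differences was not tested.

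**Figure D4:**
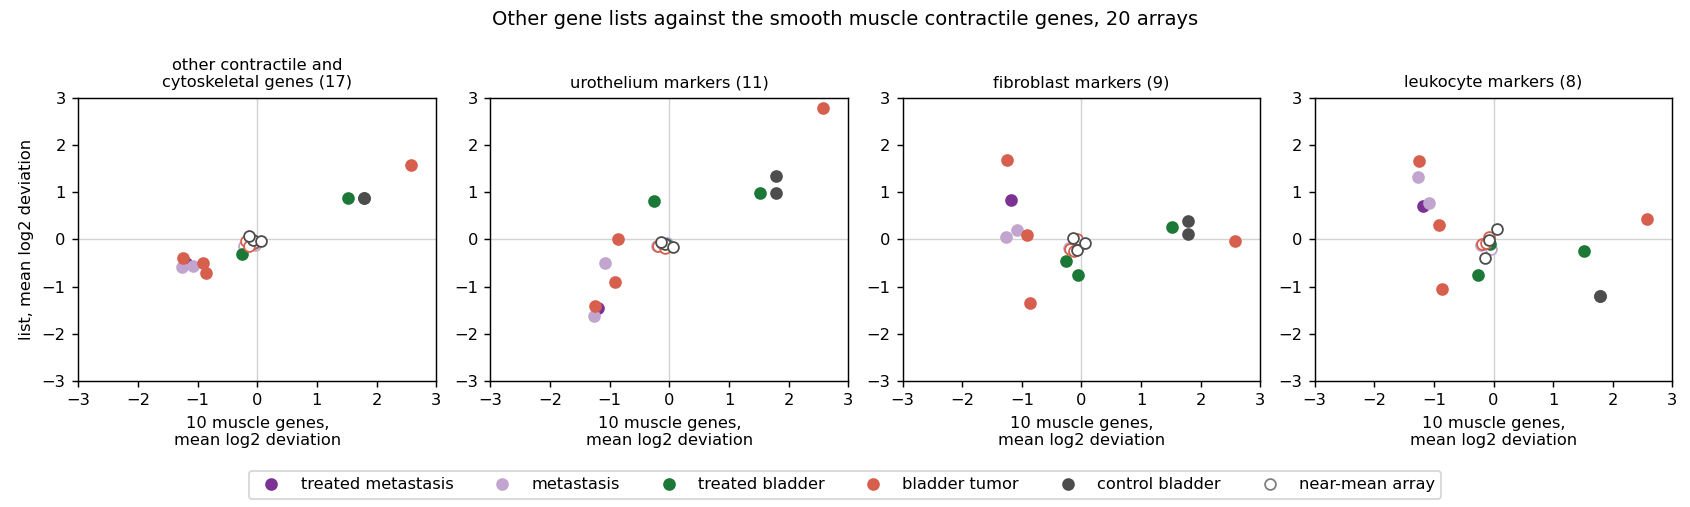
Mean log2 deviation of 4 gene lists (vertical axes) against that of the 10 smooth muscle contractile genes (horizontal axis), 1 point per array, coloured by group and open for near-mean arrays; both axes are log2 deviations from each gene's mean over 20 arrays. Other contractile genes and urothelium markers are high on the 4 arrays at the right, and leukocyte and fibroblast markers are highest on bladder tumor 6 at the left.

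Striated muscle was read because desmin marks it too. Of its markers, 15 of 16 were measured, and their mean deviation ran from -0.29 on metastasis 1 to 0.41 on bladder tumor 6, with 0.07 on bladder tumor 7. Its list levels ranged from 5.11 to 5.41 in metastasis, 5.25 to 5.44 in treated bladder, 5.28 to 5.81 in tumor and 5.27 to 5.50 in control, and stood at 5.47 in the treated metastasis. Myh4, a myosin of fast skeletal fibres, read 4.73 to 5.93 on all 20 arrays, and was 4.85 on bladder tumor 7. Acta1, skeletal actin, read 8.13 on bladder tumor 7 and 5.53 to 6.68 on the other 19 arrays, and its probes may share sequence with the other muscle actins. Ckm, the muscle creatine kinase, was also highest on bladder tumor 7 (6.50), with 5.33 to 6.37 on the other 19 arrays. Its r with the mean of the members was 0.67 over the 20 arrays, beside a median of -0.38 over the 15 measured markers. Pericyte markers (7 of 7) were also highest on bladder tumor 7, at a deviation of 0.49, with 0.36 and 0.27 on control bladder 1 and 2 and 0.07 on treated bladder 2. Pericyte levels ranged from 5.53 to 5.75 in metastasis, 5.72 to 5.76 in treated bladder, 5.46 to 6.18 in tumor and 5.51 to 6.05 in control, and stood at 5.45 in the treated metastasis. Within that list Rgs5, which mural cells make, read 8.23 on bladder tumor 7 and 7.37 and 7.41 on control bladder 1 and 2, while Pdgfrb read 6.19 on bladder tumor 7 and 6.34 and 6.16 on control bladder 1 and 2. Endothelium markers (8 of 8) ran from -0.40 on the treated metastasis to 0.57 on control bladder 1. Neuron markers (9 of 10), read because of Pcp4, deviated by at most 0.22 on any array, and lung epithelium markers (7 of 8) by at most 0.28 in size.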

How the data were processed

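The deposited values are log2 RMA values, for which the submitters' processing notes name Affymetrix Expression Console without a version. Per the labels' protocols, RNA was extracted with a kit for fixed, embedded tissue. RMA as a rule equalises the distributions of arrays and so removes differences in total RNA. In the deposited table, array medians over all rows still ran from 5.07 to 5.42. A value over 16 stood in 284 rows, the highest being 22.02, although array scanners record 16 bits. What was done to the values beyond the notes is unknown, and its bearing on the near-mean arrays was not tested. Only these values were read, so brightness above background is unknown beyond the average of the receptor genes given above. The number of arrays limits the precision. Of the 65956 rows, 30604 had 1 gene symbol in the platform annotation, and the row with the highest mean stood for each of 30142 genes. Symbols were updated through a GRCm38.p6 table.

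limma (3.58.1, R 4.3.3) fitted group means to 19 arrays (lmFit, eBayes), two-sided, with Benjamini-Hochberg adjustment over all genes and calls at adjusted p under 0.05. The treated metastasis entered no test. The fit was tested on simulated data. Near-mean arrays are those whose deviations correlate with no other array above 0.2. The members, lists, near-mean set and settings were chosen with earlier results of these data known. All members were named; of other lists, the 2 genes with the smallest p in tumor minus control; and the 10 genes most alike, leaving out predicted ones. Alternatives included array weights, a fit of only the 2 groups compared, a trended prior, quantile normalization, median centring, dropping dim genes, averaging rows, a replicate block, the near-mean set left out or as a covariate, and leaving out each array. Chosen after seeing the data were the near-mean arrays alone, and leaving them out with array weights or with each further array left out.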

Additional observations from a re-analysis of the deposited data

Results flagged for a closer look

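Bladder tumor 7 stood far from the other 6 tumors for 8 of the 10 genes, measured as the gap to the next tumor divided by the whole range of the 7 tumors. The gap was 0.680 of the range for Acta2, 0.687 for Actg2, 0.688 for Myh11, 0.676 for Tagln, 0.709 for Cnn1, 0.661 for Smtn, 0.629 for Des and 0.602 for Pcp4. In each case bladder tumor 7 was the highest. Of 30 pairs of gene and group looked at, 8 passed the limit, which chance passes in about 1 of 20, and the 8 are not independent because the genes run together across arrays. The same array read 12.21 for Upk3a.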

How the results depend on the processing

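In the 19 arrays no alternative brought a member below an adjusted p of 0.05; array weights, dropping dim genes and the 2 groups alone called 2, 2 and 1 genes of all, the first pair in metastasis minus tumor and the last in metastasis minus control. Without the near-mean arrays, genes called were 1 in tumor minus control, 1 in treated bladder minus control, 4 in metastasis minus tumor and 5 in metastasis minus control, with member medians of -2.03, -1.27, -1.09 and -3.29 in the same order. With array weights added, the counts were 48, 1, 4 and 263 in the same order, the medians were -2.32, -1.73 in treated bladder minus control and -3.29, and 1 member, Pcp4, passed in metastasis minus control (-3.44, adjusted p = 0.0360). In the near-mean arrays alone the metastasis minus control median was -0.078. Signs turned there in tumor minus control for Des (0.088), Kcnmb1 (0.31) and Mylk (0.044), in metastasis minus tumor for Acta2 (0.20), Actg2 (0.13), Myh11 (0.041), Tagln (0.097), Smtn (0.031), Pcp4 (0.092) and Mylk (0.082), and in metastasis minus control for Actg2 (0.084) and Mylk (0.13). In treated bladder minus tumor, array weights gave a median of 0.11 and turned Acta2 (-0.13), Pcp4 (-0.0050) and Kcnmb1 (-0.024). In treated bladder minus control, Actg2 turned to -1.11 with array weights, -1.34 without the near-mean arrays, -1.996 with both and -0.034 with the near-mean set as a covariate. Des turned to -0.59, -0.81, -1.07 and -0.10 under these, and to -0.013 with array medians centred. Whether samples with the same replicate number came from the same animal is not in the labels. Same-numbered arrays correlated above 0.1 in 0 of 5, 1 of 3, 1 of 2, 0 of 4 and 0 of 3 pairs of the 5 comparisons. This cannot settle the pairing, because deviations were taken within each group and several pairs hold a near-mean array. All arrays numbered 1 or 2 lie outside the near-mean set, so a block on replicate number partly separates that set from the rest. The replicate block called 0 members, although 7 of 10 in tumor minus control and 9 of 10 in metastasis minus control were lower at an unadjusted p under 0.05 (3.1% and 4.47% of all genes). Its medians were -1.34, -1.72, -0.45 in treated bladder minus control, 0.76 in treated bladder minus tumor and -0.37 in metastasis minus tumor. It turned Smtn (0.024 in treated bladder minus tumor, 0.036 in metastasis minus tumor), Actg2 (-0.098) and Des (-0.19) in treated bladder minus control. Leaving out single arrays, with or without the near-mean set, gave 0 to 3 members, 0 to 59 genes and medians of -2.88 to -0.52 in tumor minus control. It gave 0 to 2 genes and -1.97 to 0.021 in treated bladder minus control, 0 to 41 genes and -1.54 to -0.11 in metastasis minus tumor, 0 to 2 members, 0 to 64 genes and -3.57 to -1.15 in metastasis minus control, and -0.0039 to 1.29 in treated bladder minus tumor. By gene, the sign of a difference turned in part of these fits. In treated bladder minus tumor the ranges were -0.48 to 2.16 for Acta2, -0.22 to 1.78 for Tagln, -0.25 to 0.11 for Smtn, -0.14 to 1.03 for Pcp4, -0.068 to 0.65 for Kcnmb1 and -0.068 to 0.77 for Mylk. In treated bladder minus control they were -3.73 to 0.14 for Acta2, -2.43 to 1.19 for Actg2, -2.83 to 0.22 for Myh11, -2.50 to 0.017 for Tagln, -1.67 to 0.19 for Cnn1, -1.27 to 0.29 for Des and -1.01 to 0.013 for Kcnmb1. In metastasis minus tumor they were -1.62 to 0.45 for Acta2, -0.22 to 0.064 for Smtn and -0.70 to 0.14 for Mylk. Causes were not tested.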
